A study of Mus musculus with 8 samples.

Results

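The miR-30 family was followed here as 10 mature products, the 5p arms mmu-miR-30a-5p, mmu-miR-30b-5p, mmu-miR-30c-5p, mmu-miR-30d-5p and mmu-miR-30e-5p and the 3p arms mmu-miR-30a-3p, mmu-miR-30e-3p, mmu-miR-30d-3p, mmu-miR-30c-2-3p and mmu-miR-30c-1-3p. They were chosen by name, all 10 were present among the 422 miRNAs measured, and none was lost to a filter, since none was applied. Hippocampal small RNA of male mice, 12 weeks old, was sequenced as 1 library per animal, 4 of them BTBR and 4 B6. BTBR stands for the inbred strain BTBR T+ Itpr3tf/J, a mouse model of autism, and B6 for the inbred strain C57BL/6J. Since the control is another inbred strain, features of the model and other differences between the strains cannot be told apart.

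A miRNA hairpin is cut by Drosha and Dicer into a duplex of 2 arms, one of which is loaded into an Argonaute protein and guides it to mRNAs that pair with bases 2 to 8 of the miRNA, the seed. The arm that is usually kept is called the guide and the other the passenger. In the miR-30 family the 5p arms share one seed and so can pair with the same sites, while the 3p arms have other seeds. miR-30 miRNAs are made in many tissues, neurons and endothelium among them, and miR-30a-5p has been described as a repressor of Bdnf, which encodes a neurotrophin.

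The mature sequences of 7 of the 10 members were taken from RefSeq (GRCm38.p6), and miR-30b-5p, miR-30d-5p and miR-30d-3p are given by name only. They are printed 5′ to 3′ with the seed in capitals, because the seed sets which members can replace each other and because single bases separate some of them.
miR-30a-5p: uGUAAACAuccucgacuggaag
miR-30c-5p: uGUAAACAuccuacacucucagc
miR-30e-5p: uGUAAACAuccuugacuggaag
miR-30a-3p: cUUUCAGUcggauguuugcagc
miR-30e-3p: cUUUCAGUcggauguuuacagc
miR-30c-1-3p: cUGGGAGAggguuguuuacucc
miR-30c-2-3p: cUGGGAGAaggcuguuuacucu
The printed 5p arms share the seed GUAAACA and the 3p arms fall into a pair with UUUCAGU and a pair with UGGGAGA. miR-30a-5p and miR-30e-5p have 21 of 22 bases in common and differ only by C13U, with positions counted from the 5′ end and the base of miR-30a first. miR-30a-3p and miR-30e-3p also share 21 of 22 bases and differ by G18A. miR-30c-1-3p and miR-30c-2-3p differ by G9A, U12C and C22U. Each printed 5p arm began with U, as did 44.6% of the 168 measured 5p miRNAs with a sequence, and each printed 3p arm began with C, as did 25.6% of 176 measured 3p miRNAs.

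Mir30a lies on chromosome 1 of GRCm38 from 23272269 to 23272339, outside other annotated genes, and 19361 bases before Mir30c-2, from 23291701 to 23291784, within an exon of the lincRNA Gm27028. Mir30e (chromosome 4, 120772606 to 120772697) and Mir30c-1 (120769534 to 120769622) lie 2983 bases apart on the minus strand in introns of Nfyc, a subunit of the CCAAT-binding factor NF-Y. Both Mir30c hairpins carry the same mature miR-30c-5p, so its reads cannot be assigned to one of them, and only their 3p arms tell the hairpins apart. The hairpins of Mir30a and Mir30e are shown with both mature arms in capitals, since their near-identical arms were balanced in opposite ways in these counts.
Mir30a: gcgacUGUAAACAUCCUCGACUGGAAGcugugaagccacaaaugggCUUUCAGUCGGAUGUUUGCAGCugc
Mir30e: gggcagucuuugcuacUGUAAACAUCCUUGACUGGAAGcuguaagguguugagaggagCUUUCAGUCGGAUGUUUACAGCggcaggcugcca

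The libraries held between 2247482 and 7904990 reads counted on miRNAs, and the lowest total was that of BTBR replicate 2. BTBR replicate 2 also stood apart from its strain, with a root mean square deviation from the strain mean of 0.73 on the log2 scale over all miRNAs, against 0.37 to 0.55 in the other libraries. Fitted strain differences of the members, their arm ratios and their shares that change sign without it are given with and without it. The 5 neuronal markers, miR-9-5p and miR-124-3p among them, summed to between 51640 and 80541 CPM (counts relative to the library size after TMM normalization) in B6 and between 60191 and 72878 CPM in BTBR mice. miR-223-3p of the microglia and leukocyte list and miR-1264-3p of the choroid plexus list were not among the measured miRNAs. The choroid plexus list, with 7 of 8 markers measured, ranged from 5176 to 39610 CPM in the B6 libraries and from 5226 to 9520.2 CPM in BTBR mice. Its highest library was B6 replicate 1, which also had the highest sums of the oligodendrocyte and the endothelial and mural cell markers, and the part of this in the miR-30 levels was not tested.

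In these counts the family was dominated by 3 of its 5p arms. The 5p members together took 0.820% ± 0.139 of all counts (SD, n = 4) in B6 and 0.879% ± 0.163 in BTBR mice. The 3p members took 0.145% ± 0.0235 and 0.154% ± 0.0313. They took 0.199% in BTBR replicate 2, 0.126% to 0.146% in the other BTBR libraries and 0.120% to 0.176% in the B6 libraries. The higher BTBR mean of the 3p members rested on BTBR replicate 2. In CPM after TMM normalization the summed 5p members reached 8574 ± 442 in B6 and 8295 ± 1387 in BTBR mice. BTBR replicate 2 had 6424 CPM, the other BTBR libraries 8127 to 9602 CPM and the B6 libraries 8123 to 9164 CPM. The lower BTBR mean of this sum rested on BTBR replicate 2. The 3p members made up 15.0% ± 0.72 of the family's reads in B6 and 15.4% ± 5.66 in BTBR mice. BTBR replicate 2 had the highest 3p portion, at 23.8% (Wilson 95% interval 23.2 to 24.4, counting error only). The other BTBR libraries lay between 11.2% and 13.6%, below all B6 libraries, which lay between 14.4% and 16.1%. The higher BTBR mean of this portion thus rested on BTBR replicate 2. The 7 members with a sequence were 22 or 23 bases long, so the CPM of members were set side by side without a correction for length. Ligation preferences and the counting rules remain in these levels.

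miR-30b-5p was the most abundant member, 26th of the 422 miRNAs by mean CPM. It had 5007, 4668, 4421 and 4211 CPM in the B6 libraries and 6245, 2854, 3924 and 4939.8 CPM in the BTBR libraries, in the order of replicates 1 to 4. The BTBR libraries held both the highest and the lowest value, and enclosed all B6 libraries. miR-30a-5p, 45th of 422, had 2407, 1780.0, 2029 and 2271 CPM in the B6 libraries and 1771, 1812, 1927 and 2181 CPM in BTBR mice. miR-30c-5p, 49th of 422, had 1713, 2136, 1645 and 1875 CPM in the B6 libraries and 1552, 1726, 2246 and 1873 CPM in BTBR mice. In both miRNAs the strains overlapped over most of their range, and the highest library was within 1.36 times (miR-30a-5p) or 1.45 times (miR-30c-5p) of the lowest.

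The remaining 5p arms were rare in these counts. The authors assigned reads lying fully inside the coordinates of a reference RNA, and whether these were mature or hairpin coordinates is not given. How reads that map to several near-identical members were assigned is not given in the sources used here either. The part of either rule in the low counts of miR-30d-5p and miR-30e-5p, and in their gaps to miR-30a-5p, was not tested. miR-30d-5p had between 48 and 212 reads per library, or 26.2 ± 5.08 CPM in the B6 libraries and 24.8 ± 2.49 CPM in BTBR mice (SD, n = 4). miR-30e-5p had between 20 and 67 reads, or 6.70 ± 1.18 CPM in the B6 libraries and 7.61 ± 2.45 CPM in BTBR mice, and was the lowest of the 10 members. Library by library, miR-30a-5p had 168 to 418 times as many reads as miR-30e-5p, from which it differs by a single base, and 64.3 to 105 times as many as miR-30d-5p. At 336th of 422 miRNAs, miR-30e-5p was far below its own 3p arm.

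Among the 3p arms, miR-30e-3p was the most abundant, with 847, 900.4, 679 and 879 CPM in the B6 libraries and 654, 1117, 735 and 775 CPM in BTBR mice. miR-30a-3p had 481, 431, 411 and 464 CPM in the B6 libraries and 345, 710.2, 355 and 399 CPM in BTBR mice. In both, BTBR replicate 2 was the highest of the 8 libraries. In miR-30a-3p the other BTBR libraries lay below all B6 libraries, whereas in miR-30e-3p the strains overlapped. miR-30c-2-3p followed with 245, 144, 252 and 234 CPM in the B6 libraries and 186, 168, 171 and 176 CPM in BTBR mice. B6 replicate 2 was the lowest of all 8 libraries and the other B6 libraries lay above every BTBR library.

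miR-30c-1-3p had 13.8, 15.7, 11.7 and 16.6 CPM in the B6 libraries and 13.2, 8.53, 6.26 and 11.7 CPM in BTBR mice, from 19 to 97 reads. Of the BTBR libraries, 3 lay below the lowest B6 library, BTBR replicate 4 only just, and BTBR replicate 1 lay above it. miR-30d-3p had 11.9, 8.20, 14.5 and 16.2 CPM in the B6 libraries and 13.2, 1.35, 9.27 and 12.03 CPM in BTBR mice, and the value of BTBR replicate 2 rested on 3 reads.

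Ordered by mean CPM, the members ran miR-30b-5p, miR-30a-5p, miR-30c-5p, miR-30e-3p, miR-30a-3p, miR-30c-2-3p, miR-30d-5p, miR-30c-1-3p, miR-30d-3p and miR-30e-5p. miR-30b-5p exceeded miR-30a-5p by 1.57 to 3.53 times in all 8 libraries. miR-30a-5p and miR-30c-5p could not be ordered, since the first was higher in 6 of 8 libraries and their ratio ranged from 0.83 to 1.40. miR-30c-1-3p and miR-30d-3p could not be ordered either, with the first higher in 4 libraries. miR-30d-3p was above miR-30e-5p in 7 libraries, and every other neighbour kept its place in all 8.

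**Figure D1:**
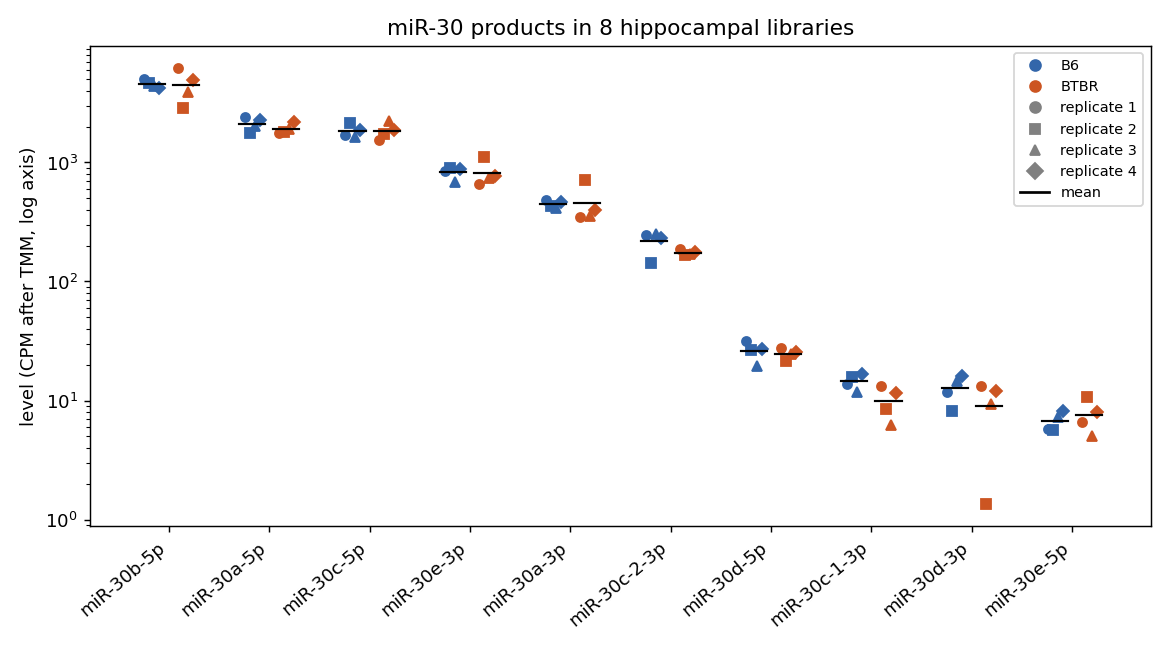
Level of each of the 10 miR-30 products in CPM after TMM normalization (log axis) in the 4 B6 and 4 BTBR libraries, with 1 symbol per replicate and a line at the mean. miR-30b-5p lies between 2854 and 6245 CPM and miR-30e-5p between 5.01 and 10.8 CPM, and the single low point of miR-30d-3p is BTBR replicate 2.

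The first comparison asked whether any miR-30 product differed between the hippocampus of BTBR and B6 mice. None of the 10 members was called at an adjusted p under 0.1 by the quasi-likelihood test of edgeR, with Benjamini-Hochberg correction over all 422 miRNAs. Among all miRNAs, 7 of 422 miRNAs (1.66%) were called. None of the members had an unadjusted p under 0.05, as 46 of all 422 miRNAs did. limma-voom and DESeq2 also called 0 of 10 members, beside 6 and 21 of all miRNAs. In none of the members did the strains fail to overlap, as they did in 28 miRNAs (6.64%) of the table. In bulk tissue, fewer cells of a type and less RNA per cell cannot be told apart.

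The intervals of these differences were narrow for the abundant members. The log2 fold change of BTBR over B6 was −0.14 (95% interval −0.52 to 0.24) for miR-30a-5p, −0.03 (−0.53 to 0.48) for miR-30b-5p and 0.01 (−0.40 to 0.41) for miR-30c-5p. In linear terms, changes below 0.69-fold and above 1.39-fold lie outside the interval of miR-30b-5p. For miR-30e-3p the log2 fold change was −0.01 (−0.47 to 0.45), and for miR-30a-3p it was 0.02 (−0.53 to 0.56). The rare miR-30d-5p and miR-30e-5p had −0.08 (−0.64 to 0.49) and 0.17 (−0.63 to 0.97). Single libraries moved these small values, to −0.26 for miR-30a-5p without BTBR replicate 4 and to −0.24 for miR-30d-5p without B6 replicate 3.

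The lowest values were those of the 3p arms of miR-30c and miR-30d. miR-30c-1-3p had a log2 fold change of −0.54 (95% interval −1.25 to 0.18, adjusted p = 0.601 in the edgeR fit, exact permutation test p = 0.0571 unadjusted), with a mean of 14.5 ± 2.18 CPM in the B6 libraries and 9.90 ± 3.10 CPM in BTBR mice (SD, n = 4). miR-30c-2-3p had −0.32 (−0.80 to 0.16), with 219 ± 50.7 CPM in the B6 libraries and 175 ± 7.97 CPM in BTBR mice, and an adjusted p of 0.651 in the edgeR test. miR-30d-3p had −0.46 (−1.57 to 0.64), and −0.17 without BTBR replicate 2. Of the 10 intervals, 8 lay within a 2-fold change in either direction, and those of miR-30c-1-3p and miR-30d-3p reached below it.

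Of the 10 log2 fold changes 7 were below 0, with a median of −0.05, beside a median of 0.02 over all 422 miRNAs. The 5p members had a median of −0.03 and the 3p members one of −0.32. With libraries scaled by size only, the median of all miRNAs moved to 0.15, and miR-30a-5p, miR-30b-5p, miR-30d-5p and miR-30e-3p took values above 0 that stayed below this median. Under the same scaling miR-30c-2-3p was at −0.14, the median of the 3p members, and miR-30d-3p at −0.27. Without BTBR replicate 2, miR-30a-3p moved from 0.02 to −0.31 (adjusted p = 0.419 in the edgeR fit of the other 7 libraries), miR-30e-3p to −0.22, miR-30b-5p to 0.11 and miR-30e-5p from 0.17 to −0.0529, and again no member was called.

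**Figure D2:**
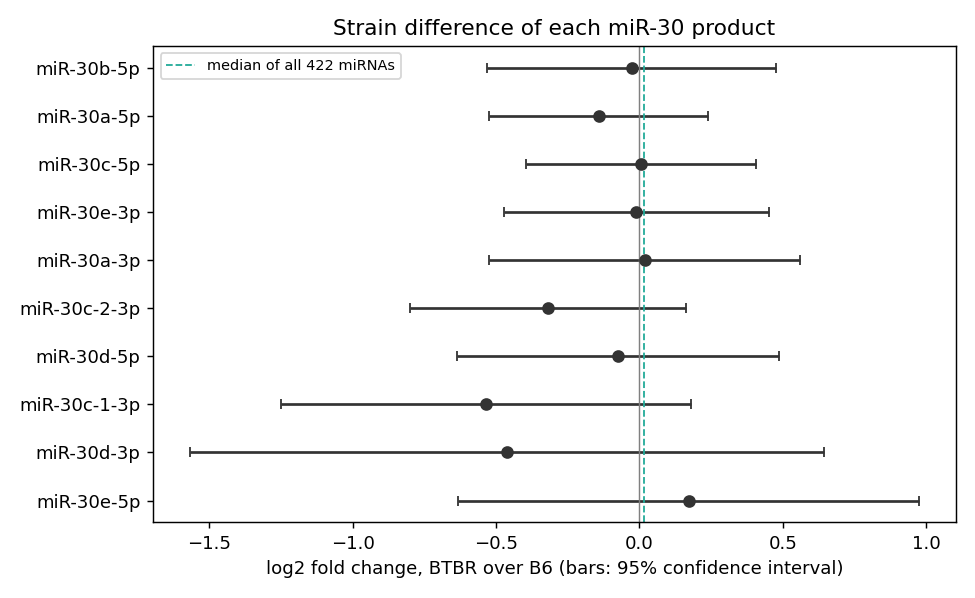
Log2 fold change of BTBR over B6 for each miR-30 product, in the order of mean level, from edgeR's quasi-likelihood fit of 8 libraries. Points are estimates, bars are 95% confidence intervals and the dashed line is the median of all 422 miRNAs (0.02). Every interval includes 0, and that of miR-30d-3p is the widest, from −1.57 to 0.64.

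Of the 10 members, 9 varied less between mice of a strain than the median miRNA did. The SD of log2 CPM within strains was 0.17 for miR-30a-5p, and only 15 of the 422 miRNAs had a smaller one. It was 0.20 for miR-30c-5p, 0.23 for miR-30d-5p, 0.27 for miR-30e-3p and 0.27 for miR-30c-2-3p. miR-30b-5p, miR-30e-5p, miR-30a-3p and miR-30c-1-3p had 0.35 to 0.36, and miR-30d-3p had 1.003. The median over the members was 0.31 and that over all 422 miRNAs 0.44. These 422 include rare miRNAs, and the members were not compared with miRNAs of like level.

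The second comparison concerned the share of each paralogue among the reads of the 5p members. miR-30b-5p held 53.4% ± 2.13 in B6 and 53.1% ± 9.01 in BTBR mice (SD, n = 4). Its share was 54.6%, 54.2%, 54.4% and 50.2% in the B6 libraries and 65.0%, 44.4%, 48.3% and 54.7% in the BTBR libraries. The Wilson 95% intervals, which cover counting error only, were 64.6% to 65.5% in BTBR replicate 1 and 43.6% to 45.2% in BTBR replicate 2. The BTBR libraries held both the lowest and the highest share, and a difference in spread between the strains was not tested.

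miR-30a-5p held 24.7% ± 2.85 in B6 and 23.6% ± 4.01 in BTBR mice, and miR-30c-5p 21.5% ± 2.64 and 22.9% ± 5.42. miR-30d-5p held 0.304% ± 0.046 and 0.302% ± 0.024, and miR-30e-5p 0.079% ± 0.017 and 0.097% ± 0.049. Among all members of seed families, 4 of 118 shares (3.39%) were called between the strains by limma at an adjusted p under 0.1. None of them was a miR-30 share. An unadjusted p under 0.05 was found for 18 of the 118 shares, none of them of miR-30. The log2 odds of the share differed by −0.01 for miR-30b-5p (95% interval −0.62 to 0.60), by −0.10 for miR-30a-5p (−0.57 to 0.38) and by 0.09 for miR-30c-5p (−0.49 to 0.67). For miR-30d-5p the difference was 0.0030 (−0.36 to 0.36) and for miR-30e-5p it was 0.21 (−0.56 to 0.98). Without BTBR replicate 2 these differences were 0.16 for miR-30b-5p, −0.22 for miR-30a-5p, −0.0249 for miR-30c-5p, −0.0516 for miR-30d-5p and −0.0965 for miR-30e-5p, so that all but that of miR-30a-5p changed sign, and none was called.

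**Figure D3:**
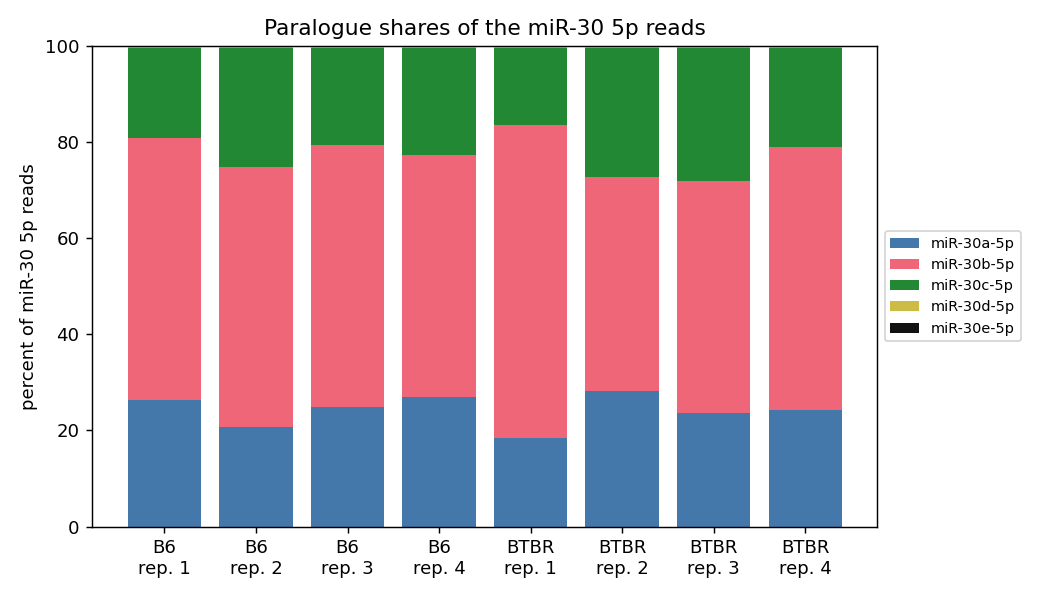
Share of each paralogue in the reads of the 5 miR-30 5p members (percent, vertical axis) in each of the 8 libraries. miR-30b-5p takes between 44.4% and 65.0%, miR-30a-5p between 18.4% and 28.2% and miR-30c-5p between 16.2% and 27.6%, while miR-30d-5p and miR-30e-5p are too thin to be seen at no more than 0.346% each.

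miR-384-5p, a miRNA studied in hippocampal synaptic plasticity and encoded on chromosome X, carries the miR-30 5p seed as well.
miR-384-5p: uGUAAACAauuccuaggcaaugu
It shares 12 of the first 22 bases with miR-30a-5p, the seed included. miR-384-5p had 646 ± 166 CPM in the B6 libraries and 587 ± 221 CPM in BTBR mice (SD, n = 4), with a log2 fold change of −0.14 (95% interval −0.82 to 0.54). BTBR replicate 2 had 263 CPM, the other BTBR libraries 637 to 741 CPM and the B6 libraries 528 to 891 CPM. The lower BTBR mean thus rested on BTBR replicate 2. miR-384-5p gave more reads of this seed than miR-30d-5p and miR-30e-5p together, between 3.93% and 9.38% of the reads of all 6 miRNAs in each library. The lowest portion was in BTBR replicate 2 and the highest in B6 replicate 2.

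The third comparison was that of the 2 arms of each hairpin, in which the scaling of libraries cancels because both arms are counted in the same library, although low counts still make a ratio uncertain. For most of the family the 5p arm was the more abundant. miR-30a-5p had 5.01, 4.13, 4.94 and 4.89 reads per read of miR-30a-3p in B6 and 5.13, 2.55, 5.43 and 5.46 in BTBR mice. All libraries but BTBR replicate 2 lay between 4.13 and 5.46. miR-30c-5p, which comes from both Mir30c hairpins, had 9.10 ± 3.90 reads per read of miR-30c-2-3p in B6 and 10.6 ± 1.98 in BTBR mice (SD, n = 4), and 128 ± 12.5 and 209.9 ± 105 per read of miR-30c-1-3p. In B6 miR-30d was the most even pair, with 2.22 ± 0.87 reads of miR-30d-5p per read of miR-30d-3p. In BTBR mice it had 2.09, 16, 2.65 and 2.12, with a mean of 5.72 against 4.64 for miR-30a.

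miR-30e was the exception. miR-30e-3p outnumbered miR-30e-5p in all 8 libraries, with 147, 158, 93.5 and 109 reads of the 3p arm for each read of the 5p arm in B6 and 99.5, 104, 147 and 96.1 in BTBR mice. For this hairpin the words guide and passenger, if read as the 5p and the 3p arm, thus go against the counts. The ratio was steady, with a within-strain SD of 0.32 on the log2 scale, and 17 of the 127 pairs of arms in the table had a smaller one. Of all 127 pairs, 56.7% had more 5p than 3p reads, and 12 had a lower ratio of 5p to 3p than miR-30e. miR-30e-5p differs by a single base from the far more abundant miR-30a-5p, and miR-30e-3p by a single base from miR-30a-3p. How reads that map to both were assigned is not given. The authors assigned reads lying fully inside the coordinates of a reference RNA. The part of either rule, and of read length, in this ratio was not tested.

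At the other end stood miR-30b. Its 3p arm, miR-30b-3p, was not among the 10 members and had 3 to 43 reads per library, and miR-30b-5p had between 227 and 6248 reads for each of them. The median pair of the table differed 28.6-fold between its arms, so that miR-30a and miR-30d, with ratios of 1.33 to 16 over all libraries, were more even than most hairpins measured.

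No arm ratio of the family was called between the strains. The fit with limma over all 127 pairs called 0 (0%) at an adjusted p under 0.1, with 8 pairs at an unadjusted p under 0.05, none of them from the miR-30 family, and edgeR with the 3p count as offset also called 0 of 127, with differences of 1.205 for miR-30d and −0.0309 for miR-30a. The log2 difference of BTBR over B6 was −0.09 for miR-30a (95% interval −0.81 to 0.63), 0.18 for miR-30e (−0.48 to 0.84), 0.28 for miR-30c-5p over miR-30c-2-3p (−0.47 to 1.04), 0.58 for miR-30c-5p over miR-30c-1-3p (−0.22 to 1.38) and 0.77 for miR-30d (−0.60 to 2.15). For miR-30b, whose 3p arm is rare, it was −0.91 (−2.65 to 0.83). Without BTBR replicate 2 the difference moved to 0.17 for miR-30a, to 0.12 for miR-30d and to −0.23 for miR-30b. Other single libraries also moved these differences. That of miR-30b was −0.37 without B6 replicate 4 and −1.39 without B6 replicate 2. That of miR-30c-5p over miR-30c-1-3p was 0.28 without BTBR replicate 3. That of miR-30c-5p over miR-30c-2-3p was 0.55 without B6 replicate 2, 0.19 without B6 replicate 1, 0.15 without B6 replicate 3 and 0.18 without BTBR replicate 3. That of miR-30e was 0.0614 without B6 replicate 2, 0.0974 without B6 replicate 1, and 0.31 without B6 replicate 3 or BTBR replicate 3.

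**Figure D4:**
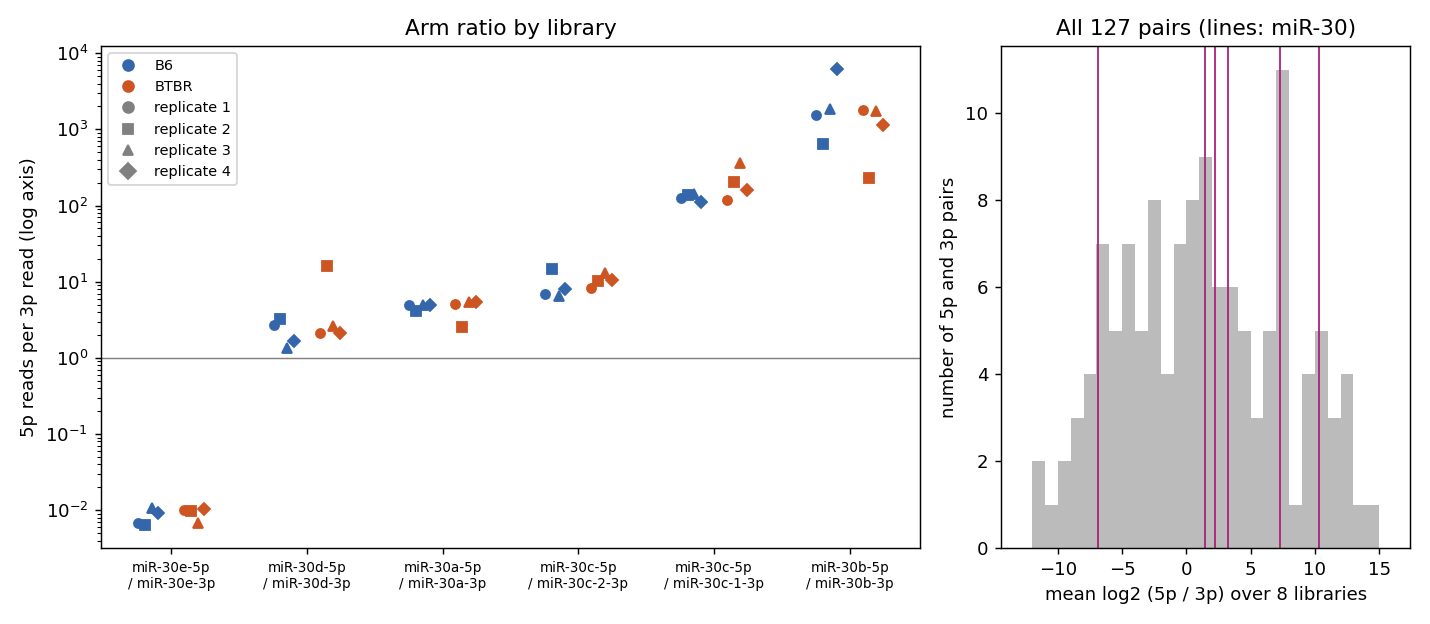
Left, reads of the 5p arm per read of the 3p arm (log axis) for each miR-30 pair in each library, with a line at 1. Right, number of all 127 pairs by mean log2 ratio, with the miR-30 pairs as vertical lines. Only the miR-30e pair lies below 1, and the low miR-30a point and the high miR-30d point are BTBR replicate 2.

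In BTBR replicate 2 the balance of arms was shifted in parts of the family. Its miR-30a ratio lay 1.05 below the strain median on the log2 scale. Over the 56 pairs with a mean of at least 100 reads in both arms, the median deviation of this library was 0.05, and 5 pairs deviated further down than miR-30a. In the same library miR-30b-5p was at its lowest and miR-30b-3p, at 12.6 CPM, at its highest, and miR-384-5p was at its lowest (263 CPM) and miR-384-3p at its highest (189 CPM). The miR-30d pair moved the other way, and the miR-30e pair stayed within the range of the other libraries. These pairs were singled out after their values were seen. This library also had the lowest depth and the lowest sum of the 4 endothelial and mural cell markers, at 6831 CPM against 8863 to 13365 CPM in the other libraries. Its measured microglia and leukocyte markers were also the lowest, at 41.7 CPM against 46.0 to 69.1 CPM, and its red blood cell markers the highest, at 1371 CPM against 303 to 1364 CPM. The part of any of these in the arm ratios was not tested.

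The 3p arms of the Mir30c hairpins tell which locus a read came from. miR-30c-1-3p, from the Nfyc intron, had 0.071 ± 0.028 reads per read of miR-30c-2-3p, from chromosome 1, in B6 and 0.056 ± 0.016 in BTBR mice (SD, n = 4). The ratio ranged from 0.037 in BTBR replicate 3 to 0.11 in B6 replicate 2, with overlapping strains (log2 difference −0.29, two-sided exact permutation test p = 0.429, where 0.0286 is the smallest value possible). The difference was −0.0604 without B6 replicate 2, −0.11 without BTBR replicate 3 and −0.47 without B6 replicate 3, so that its size rested on single libraries. The 3p arms of the other pair with a shared seed, miR-30e-3p and miR-30a-3p, kept a ratio between 1.57 and 2.09 in all libraries.

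That ratio was the steadiest within the family. Over the 21 pairs of the 7 members with a mean of at least 100 reads, the SD over 8 libraries of the log2 ratio had a median of 0.36. It was 0.15 for miR-30a-3p and miR-30e-3p, which come from different chromosomes but differ by a single base. The next pairs were miR-30a-5p with miR-30c-2-3p at 0.212 and miR-30a-5p with miR-30d-5p at 0.219. The hairpins Mir30a and Mir30c-2 are neighbours on chromosome 1, but the 3p arm of the first, miR-30a-3p, had an SD of 0.44 with miR-30c-2-3p, above the median. miR-30a-5p and its own 3p arm had 0.36. miR-30b-5p with miR-30a-3p had the highest SD, 0.61. The Nfyc-intron neighbours miR-30e-3p and miR-30c-1-3p, the second of which is rare, had 0.53. These are descriptions over 8 libraries, and the members of a pair share a library and its depth. How reads that map to both miR-30a-3p and miR-30e-3p were assigned is not given. The part of this in their steady ratio was not tested.

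**Figure D5:**
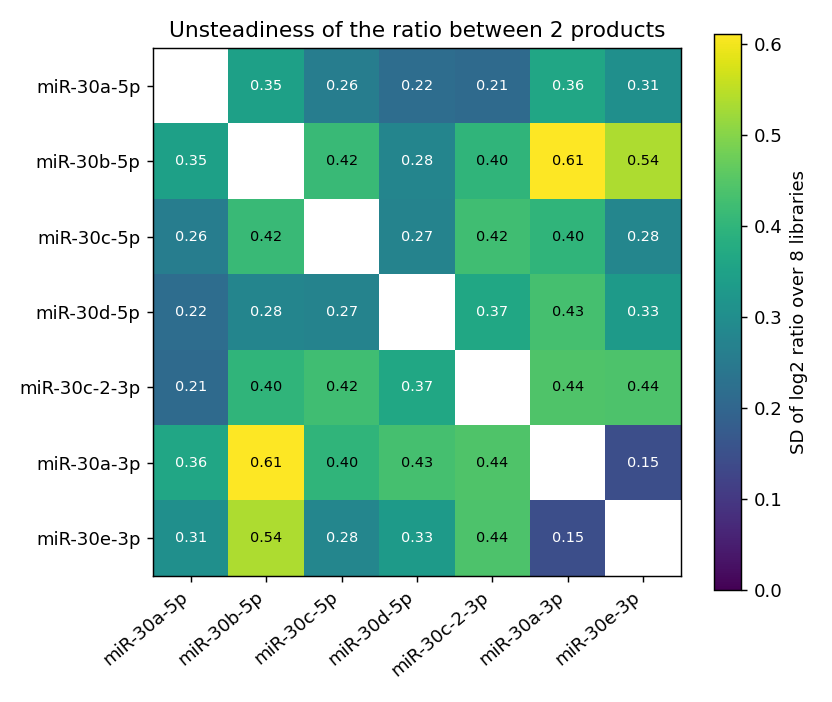
SD over the 8 libraries of the log2 ratio between 2 miR-30 products (colour and number, log2 units), for the 7 members with a mean of at least 100 reads. Low values mark pairs whose ratio is steady, with 0.15 for miR-30a-3p and miR-30e-3p, and high values pairs that part, with 0.61 for miR-30b-5p and miR-30a-3p.

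Measured the same way, the miRNAs that kept the steadiest ratio to the summed miR-30 5p reads, among 261 other miRNAs with a mean of at least 100 reads, were miR-181c-3p (SD 0.12), miR-181d-5p (0.13), miR-412-5p (0.14), miR-330-5p (0.14) and miR-872-5p (0.15). The median SD was 0.42. The miR-30 5p members had 15.4 to 19.4 reads for each read of miR-181c-3p and 1.51 to 2.01 for each read of miR-181d-5p.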

How the data were processed

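Total RNA of single hippocampi was made into libraries with the Illumina TruSeq Small RNA kit, without molecular identifiers. Per the study's methods, the authors checked reads with FastQC 0.11.2, removed adapters and aligned to GRCm38 with sRNAbench, which uses Bowtie. Reads lying fully inside reference coordinates of the miRBase 21 annotation were assigned to them and counted. The deposited values are these whole-number counts of 422 miRNAs, and the authors' filter on miRNAs, if any, is not given in the sources used here. The table was fitted whole, with R 4.3.3 and edgeR 4.0.16 (TMM, quasi-likelihood, Benjamini-Hochberg, threshold 0.1). Arm ratios of 127 pairs and shares in 43 seed families, each with a pseudocount of 0.5, were fitted with limma 3.58.1. Single values had two-sided exact permutation tests over 70 assignments. DESeq2 1.42.0, limma-voom, other scalings, a low-count filter, a replicate block and leaving out each library were alternatives. Scripts were tested on simulated data.

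The members and lists were chosen with earlier results of these data known. Named were all 10 members, measured miRNAs of the same seed or hairpin, the 5 miRNAs with the steadiest ratio to the summed 5p members, and markers. Replicate libraries of a strain differed by far more than sampling noise. Each library is 1 mouse. Intervals of shares cover counting error only.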

Additional observations from a re-analysis of the deposited data

Results flagged for a closer look

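Of 48 groups of 4 libraries checked for a library far from the other 3, 6 were flagged by Dixon's test, which chance does in about 1 of 20 groups. BTBR replicate 2 was flagged for miR-30a-3p, with 710.2 CPM against 345 to 399 CPM in the other BTBR libraries. It was flagged for the reads of miR-30a-5p per read of miR-30a-3p, at 2.55 against 5.13 to 5.46, and for those of miR-30d-5p per read of miR-30d-3p, at 16 against 2.09 to 2.65, the last resting on 3 reads of miR-30d-3p. B6 replicate 2 was flagged for miR-30c-2-3p, with 144 CPM against 234 to 252 CPM, and for the miR-30a arm ratio, at 4.13 against 4.89 to 5.01. In B6 replicate 4 the share of miR-30b-5p in the 5p reads of the family was 50.2%, against 54.2% to 54.6% in the other B6 libraries.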

How the results depend on the processing

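No miR-30 level, arm ratio or share was called under any alternative run, 15 for levels, 12 for arm ratios and 11 for shares. The count over all miRNAs, 7, was 21 with DESeq2, 4 with libraries scaled by size only, 4 at a threshold of 0.05, and 3 to 13 when 1 library was left out (3 without BTBR replicate 3 or 4, 4 without BTBR replicate 1, 13 without B6 replicate 2). With the replicate number as a block it was 3, and the log2 fold changes of miR-30c-5p and miR-30a-3p were −0.00126 and −0.0495, and that of miR-30d-3p was −0.71. Correlations of same-numbered libraries were 0.05, −0.07, −0.15 and −0.15, so no pairing of mice by number was visible. These values cannot exclude a pairing, and the labels name none. Of 277 member values, 236 kept their direction and 41 reversed, none past the threshold. With limma-voom miR-30c-5p was −0.000326 and miR-30a-3p −0.0637. With size-only scaling miR-30a-5p was 0.0222, miR-30b-5p 0.12, miR-30d-5p 0.0690 and miR-30e-3p 0.11. With upper-quartile scaling miR-30b-5p was 0.0248 and miR-30e-3p 0.0450, and with a filter of 10 reads in 4 libraries miR-30e-3p was 0.000997. With miR-384-5p in the seed family the log2 odds of miR-30b-5p differed by 0.00420. Leaving out 1 library, log2 fold changes ranged from −0.26 to −0.10 for miR-30a-5p, −0.24 to −0.0358 for miR-30d-5p, −0.23 to 0.11 for miR-30b-5p, −0.10 to 0.11 for miR-30c-5p, −0.0529 to 0.32 for miR-30e-5p, −0.31 to 0.13 for miR-30a-3p and −0.22 to 0.0830 for miR-30e-3p, and the miR-30a arm difference from −0.19 to 0.17. Log2 odds ranged from −0.22 to 0.0505 for miR-30a-5p, −0.24 to 0.16 for miR-30b-5p, −0.0438 to 0.29 for miR-30c-5p, −0.11 to 0.0694 for miR-30d-5p and −0.10 to 0.38 for miR-30e-5p. The cause of these changes was not tested. With 20 to 67 reads of miR-30e-5p and 3 to 100 of miR-30d-3p per library, counting error limits both.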

Other observations

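Other brain miRNA families with several paralogues were described in the same way. miR-30 members took 0.8293% to 1.19% of the counts of a library, the 4 miR-29 miRNAs 0.194% to 0.381%, the 9 miR-181 miRNAs 3.82% to 8.18% and the 3 miR-26 miRNAs 6.76% to 11.2%. None of their members was called between the strains in edgeR's quasi-likelihood test, which called 7 of all 422 miRNAs (1.66%). The median log2 fold change of BTBR over B6 was 0.04 for miR-29, −0.15 for miR-181 and −0.23 for miR-26, beside −0.05 for miR-30 and 0.02 over all 422 miRNAs. The median within-strain SD of log2 CPM was 0.30 for miR-29, 0.37 for miR-181 and 0.17 for miR-26, beside 0.31 for miR-30.

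The oligodendrocyte markers summed to 2238 to 4256 CPM in B6 and 2289 to 2922 CPM in BTBR mice, and the measured microglia and leukocyte markers to 46.0 to 61.4 and 41.7 to 69.1 CPM. The red blood cell markers summed to 303 to 853 CPM in B6 and 531 to 1371 CPM in BTBR mice, with the highest sum in BTBR replicate 2. Of these 4 markers 1 was called, beside 7 of all 422 miRNAs (1.66%).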
